A study of Homo sapiens with 10 samples.

Results

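The RNAs described here are small nucleolar RNAs (snoRNAs) and small Cajal body RNAs (scaRNAs) that were recovered in ribosome footprint libraries. They were taken as genes whose symbol starts with SNORA, SNORD or SCARNA, or whose type in the GENCODE 29 annotation is snoRNA or scaRNA, with a mean of at least 5 RPKM over the 4 footprint libraries. RPKM is the number of reads of a gene scaled to its length in kilobases and to the size of the library. This gave 140 genes out of 892 snoRNA and scaRNA genes in the files and 55889 genes in all. Of the others, 703 were listed at 0 in every footprint library. The 140 comprised 65 C/D box snoRNAs of 273, 53 H/ACA box snoRNAs of 190, 19 scaRNAs of 20 and 3 genes of other names. They were chosen by their mean footprint RPKM, so footprint levels, and ratios that use them, are given as descriptions without a test.

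The cells were of the human line KOPT-K1, from T-cell acute lymphoblastic leukaemia (T-ALL). They received the vehicle DMSO or 25 nM silvestrol, a plant compound that inhibits the RNA helicase eIF4A of translation initiation, for 45 min. Each treatment had 2 libraries of ribosome-protected fragments and 3 libraries of total RNA. The labels do not say whether replicates were separate cultures, so the p-values reflect library-to-library spread that may be technical.

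SnoRNAs are short nuclear RNAs, mostly cut from introns of host genes, that guide chemical modification of ribosomal RNA. Box C/D snoRNAs assemble with fibrillarin and direct 2′-O-methylation, and box H/ACA snoRNAs assemble with dyskerin and direct pseudouridylation. scaRNAs use the same proteins in Cajal bodies and act on spliceosomal snRNAs. None of them is translated. Ribosome profiling sequences RNA pieces that survive nuclease digestion, and RNA held in other protein complexes can be recovered with the ribosomal fragments. The files hold gene totals and no fragment lengths, so the complex that the fragments came from was not tested.

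The sequences below are the ones the results turn on. They come from the GENCODE 29 transcripts and are printed 5′ to 3′ as DNA letters. Capitals mark the box motifs found by search on the RNA strand, with boxes C and D marked only where both were found. These were TGATGA in the first 20 bases with CTGA in the last 20 (boxes C and D), and ACA 3 bases before the 3′ end with ANANNA in the middle (boxes ACA and H). The middle window ran from 35% to 65% of the length. The first set shows 3 C/D box snoRNAs encoded in the same host gene, NOP56, whose footprint values lay far apart.
SNORD110: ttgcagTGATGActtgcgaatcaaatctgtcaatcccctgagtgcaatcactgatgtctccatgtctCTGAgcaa
SNORD57: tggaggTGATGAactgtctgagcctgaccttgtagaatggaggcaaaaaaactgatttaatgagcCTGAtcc
SNORD86: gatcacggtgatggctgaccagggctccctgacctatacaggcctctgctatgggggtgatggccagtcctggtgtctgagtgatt
The second set shows the highest scaRNAs and H/ACA box snoRNAs in footprints, with SCARNA8 and SCARNA11 above every H/ACA box snoRNA.
SCARNA8: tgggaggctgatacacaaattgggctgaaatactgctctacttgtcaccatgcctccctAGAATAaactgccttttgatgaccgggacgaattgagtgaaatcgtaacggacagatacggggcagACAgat
SCARNA11: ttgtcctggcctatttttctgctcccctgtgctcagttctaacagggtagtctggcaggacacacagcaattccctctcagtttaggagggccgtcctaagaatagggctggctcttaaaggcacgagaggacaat
SNORA81: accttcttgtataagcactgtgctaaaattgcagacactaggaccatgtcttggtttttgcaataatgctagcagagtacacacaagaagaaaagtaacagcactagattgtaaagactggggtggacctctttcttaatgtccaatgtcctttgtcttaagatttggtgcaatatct
SNORA23: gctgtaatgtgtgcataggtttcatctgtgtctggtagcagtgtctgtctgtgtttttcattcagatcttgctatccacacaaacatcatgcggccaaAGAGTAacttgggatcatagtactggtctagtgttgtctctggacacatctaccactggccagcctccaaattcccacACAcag
The third set shows RNAs that one of the tests of treatment called.
SNORD20: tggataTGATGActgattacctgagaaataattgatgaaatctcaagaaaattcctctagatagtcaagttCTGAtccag
SCARNA22: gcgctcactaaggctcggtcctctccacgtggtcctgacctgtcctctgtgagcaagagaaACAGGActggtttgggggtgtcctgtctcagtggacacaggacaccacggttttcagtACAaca
SNORD91A: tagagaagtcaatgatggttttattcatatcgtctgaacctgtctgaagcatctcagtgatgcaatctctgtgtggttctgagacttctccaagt
Both C and D boxes were found in 49 of the 65 C/D box RNAs (75.4%) and in 59.1% of the 208 C/D box genes under the threshold. H and ACA boxes were found in 39 of the 53 H/ACA box RNAs (73.6%) and in 56.9% of the 137 others. Median length was 84 bases for the C/D box RNAs and 134 bases for the H/ACA box RNAs, and 81 and 134 bases in the genes under the threshold.

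The estimated totals were 1.66 to 2.38 M reads per footprint library and 126.6 to 216.4 M reads per RNA library. At these totals 65 of the 140 RNAs averaged at least 20 reads per footprint library and 75 averaged fewer, so many values are imprecise. All 12 T-cell and T-ALL markers were above 1 RPKM in total RNA (CD3D 674 RPKM), all myeloid and erythroid markers were below it, and of the B-cell markers only CD79A and CD79B were above it.

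These RNAs had far higher values in footprints than in total RNA. Their median level was 69.9 RPKM in footprints and 2.47 RPKM in total RNA. Footprint RPKM exceeded RNA RPKM for 133 of the 140. Over the RNAs the median log2 ratio, taken on log2(RPKM + 0.5), was 4.95, against -0.46 over 9017 protein-coding genes with at least 1 RPKM in both assays. These sets were filtered differently. The 140 had to be high in footprints with no floor in total RNA, where 46 were under 1 RPKM, and this choice favours a high ratio. Each assay is scaled to its own total and the preparation of the RNA libraries was not described in the sources used here, so the ratio is not a measure of protection. Within the 140, the order of levels in total RNA said little about the order in footprints (Spearman rho = 0.031). The values of a gene in both assays are scaled to its length, and the genes were chosen by footprint level. The 752 genes under the threshold, with a median of 0 RPKM in both assays, are left out, so the rho describes the chosen set only. The order of the 140 was similar between footprint libraries, with rho of 0.853 between the DMSO libraries and 0.893 between the silvestrol libraries.

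**Figure D1:**
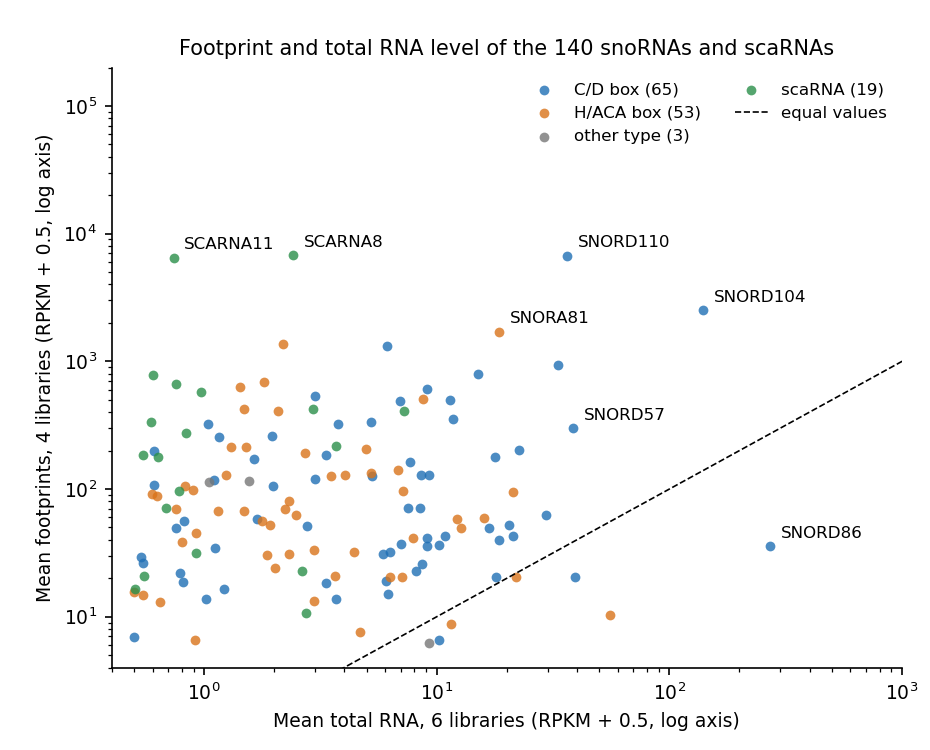
Mean footprint level against mean total RNA level of each of the 140 RNAs (RPKM + 0.5, both axes logarithmic), coloured by class, with the line of equal values. Of these RNAs 133 lie above the line, scaRNAs sit at the left with a median of 0.279 RPKM in total RNA, and SNORD86 lies far to the right at 271 RPKM.

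The class with the widest gap between assays was the scaRNAs. In footprints they had a median of 217 RPKM, and in total RNA of 0.279 RPKM, with a median log2 ratio of 7.17. C/D box snoRNAs had medians of 58.0 and 5.81 RPKM (log2 ratio 4.18), and H/ACA box snoRNAs had 66.2 and 1.81 RPKM (4.96). Genomic position went along with the RNA value. The 46 RNAs that lie inside an annotated exon of another gene on the same strand had a median of 8.58 RPKM in total RNA, against 1.32 RPKM for the other 94. Their footprint medians were 60.1 and 79.1 RPKM. Reads of the small RNA and of the longer transcript across it cannot be told apart in gene totals. The 7 RNAs with a lower footprint than RNA value were SNORD86, SNORD88B, SNORD83A, SNORA63B, SNORA31, SNORA70 (ENSG00000207165) and ENSG00000266692, and 6 of them lie in such an exon. SNORA70 and SNORD88B were also among the 5 highest in total RNA, with SNORD86, SNORD104 and SNORD57. SNORA70 had a mean of 55.1 RPKM in total RNA, and 9.80, 22.3, 0 and 7.28 RPKM in the footprint libraries DMSO 1, DMSO 2, silvestrol 1 and silvestrol 2. SNORD88B had 39.0 RPKM in total RNA, and 9.70, 13.2, 18.5 and 37.8 RPKM in footprints in that order.

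The 3 snoRNAs of NOP56, itself a core protein of C/D box particles, showed how far RNAs of 1 host gene can differ. SNORD110, a guide for methylation of small-subunit rRNA, had 7800 and 6760 RPKM in the DMSO footprints and 6050 and 6200 RPKM in the silvestrol footprints. SNORD57, another small-subunit guide, had 208 and 410 RPKM in DMSO and 327 and 253 RPKM in silvestrol. SNORD86 had 20.5 and 21.0 RPKM in DMSO and 24.5 and 74.3 RPKM in silvestrol, from an estimated 4, 3, 5 and 13 reads. SNORD86 was thus the lowest of the 3 in every footprint library, and in total RNA it was the highest. It had 264 to 280 RPKM over the 6 RNA libraries, the highest mean of all 140 RNAs, while SNORD110 had 32.2 to 38.8 RPKM and SNORD57 had 35.8 to 40.0 RPKM. The ranges of SNORD110 and SNORD57 overlapped in total RNA, while in footprints the lowest SNORD110 value was 6050 RPKM and the highest SNORD57 value 410 RPKM. All 3 lie in annotated exons, and NOP56 had a mean of 78.6 RPKM in footprints and 172 RPKM in total RNA. Of the sequences printed above, those of SNORD110 and SNORD57 hold both boxes as searched, while that of SNORD86 has the letters of box D but not those of box C in these windows.

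The other C/D box snoRNAs among the 10 highest were all guides for ribosomal RNA. SNORD104 had 3230 and 2390 RPKM in DMSO footprints and 2000 and 2460 RPKM in silvestrol footprints. It was also high in total RNA (123 to 153 RPKM), where its host SNHG25, a non-coding gene, had a mean of 26.2 RPKM. SNORD20, in the nucleolin gene NCL, had 1040 and 745 RPKM in DMSO and 1680 and 1790 RPKM in silvestrol, with both silvestrol libraries above both DMSO libraries. SNORD68, in RPL13, had 783 and 774 RPKM in DMSO and 1210 and 942 RPKM in silvestrol. SNORD60, in SNHG19, had 914 and 653 RPKM in DMSO and 821 and 764 RPKM in silvestrol, and its groups overlapped.

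The highest H/ACA box snoRNAs were SNORA81 and SNORA23, which guide pseudouridylation of large-subunit rRNA. SNORA81 lies in EIF4A2, which encodes a form of the helicase eIF4A. It had 1630 and 1030 RPKM in DMSO footprints and 2670 and 1490 RPKM in silvestrol footprints, and the groups overlapped. SNORA23, in IPO7, had 1270 and 926 RPKM in DMSO and 1660 and 1590 RPKM in silvestrol, without overlap. In total RNA SNORA81 had a mean of 18.1 RPKM and SNORA23 of 1.67 RPKM. EIF4A2 carried 4 of the 140 RNAs (SNORA81, SNORD2, SNORA63 and SNORA63B), and its own mean was 17.4 RPKM in footprints and 91.7 RPKM in total RNA.

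SCARNA8, a guide for U2 snRNA, and SCARNA11, a guide for U5 snRNA, stood above the other scaRNAs. SCARNA8 had 6630 and 5200 RPKM in DMSO footprints and 7620 and 7560 RPKM in silvestrol footprints, while its total RNA ran from 1.51 to 2.22 RPKM. SCARNA11 had 5870 and 3910 RPKM in DMSO and 8680 and 7390 RPKM in silvestrol, against 0.146 to 0.348 RPKM in total RNA. For SCARNA11 that is an estimated mean of 1886 reads per footprint library and 5.33 reads per RNA library, although the RNA libraries held far more reads. SCARNA3 followed with 703, 640, 847 and 914 RPKM in the order DMSO 1, DMSO 2, silvestrol 1 and silvestrol 2. SCARNA18 had 649, 400, 854 and 752 RPKM in that order. SCARNA21 had 571, 671, 572 and 467 RPKM, and SCARNA13, a composite guide for U2 and U5, had 356, 602, 378 and 347 RPKM. The other scaRNAs ranged from a mean of 10.1 RPKM (SCARNA9, a U2 guide) to 411 RPKM (SCARNA22), and 13 of the 19 were under 1 RPKM in total RNA.

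**Figure D2:**
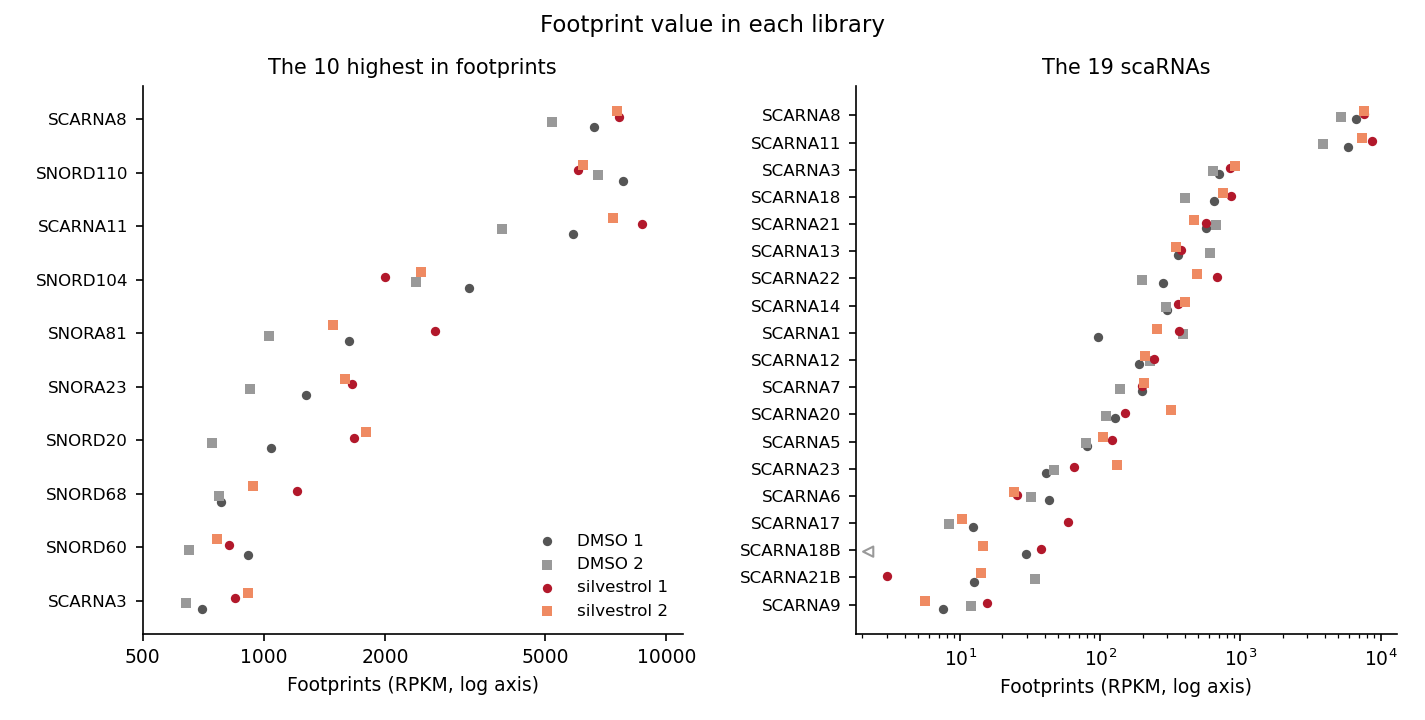
Footprint RPKM in each of the 4 libraries (logarithmic axes) for the 10 highest RNAs and for the 19 scaRNAs, with circles for replicate 1, squares for replicate 2, greys for DMSO and reds for silvestrol. The open triangle at the left edge marks a value of 0. SNORD110 is lower in both silvestrol libraries, and SCARNA8 and SCARNA11 are higher in both.

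Together the 140 RNAs took 0.53% and 0.435% of estimated reads in the DMSO footprint libraries and 0.661% and 0.595% in the silvestrol footprint libraries. In each RNA library the share was between 0.0119% and 0.0123%. SCARNA8, SNORD110 and SCARNA11 made up 39.6% to 42.5% of the reads of the 140 in each footprint library. Without these 3 the shares were 0.305% and 0.263% in DMSO and 0.398% and 0.348% in silvestrol. Both silvestrol libraries were thus above both DMSO libraries with and without the 3. With the 3, the DMSO libraries differed from each other by more than the first DMSO library did from the second silvestrol library. Without the 3 these gaps were of similar size. With 2 libraries against 2, an exact permutation test cannot go below a two-sided p of 0.333, so the sum was not tested.

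**Figure D3:**
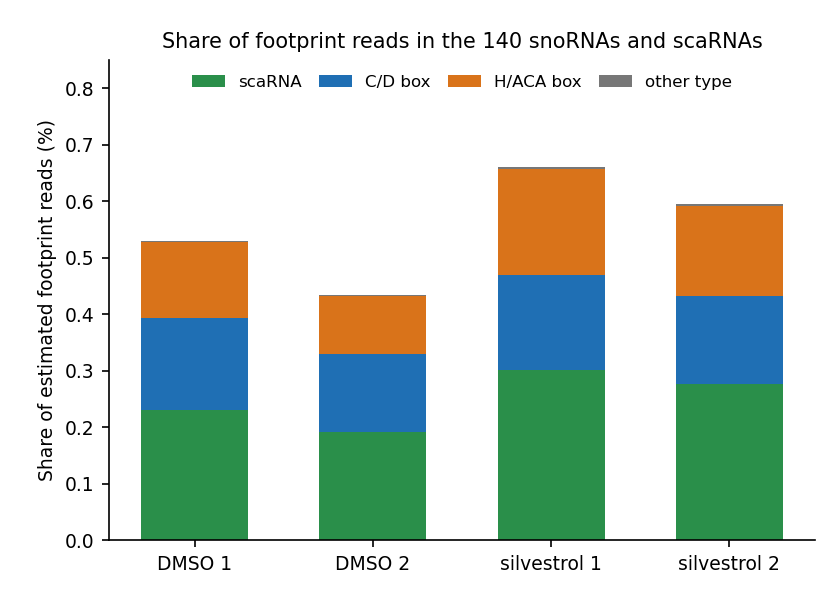
Share of estimated reads (%) taken by the 140 RNAs in each footprint library, stacked by class. The totals are 0.53% and 0.435% for DMSO and 0.661% and 0.595% for silvestrol, and scaRNAs form the largest block in each bar.

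The comparison of silvestrol with DMSO in footprints asked whether recovery of these RNAs moved with treatment. Values tended to be higher in silvestrol, but no RNA was called higher and 1, SNORD91A, was called lower at an adjusted p under 0.05 (limma on log2(RPKM + 0.5), two-sided, Benjamini-Hochberg over 11973 genes). Over all genes tested 0.00835% were called higher and 0.0167% lower. The log2 change was positive for 100 of the 140 (71.4%), against 42.2% of all genes tested, and its median was 0.56 against -0.06. At an unadjusted p under 0.05, 33 RNAs were higher and 6 lower (23.6% and 4.29%), where the background was 2.51% and 4.14% of all genes. The libraries did not overlap for 56 RNAs with silvestrol higher and 11 with silvestrol lower (40.0% and 7.86%), where the background was 13.7% and 23.6%. These genes share the same 4 libraries, so their common direction is not a count of independent observations.

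By class the median log2 change was 0.43 in C/D box, 0.77 in H/ACA box and 0.39 in scaRNAs, with 43 of 65, 41 of 53 and 14 of 19 positive. Among the 65 RNAs with at least 20 estimated reads per library the median was 0.46, 50 were positive and none was called, the lowest adjusted p being 0.534. The direction of the median held without each footprint library in turn, and its size did not. It was 0.30 without the second DMSO library and 0.41 without the first silvestrol library, and 0.69 without the second silvestrol library. In the second DMSO library 46 of the 65 better-covered RNAs were lower than in the first DMSO library, with a median log2 difference of -0.40. The second silvestrol library was also below the first silvestrol library for 42 of them and above it for 22, with a median of -0.21. Against the first DMSO library, the second silvestrol library was higher by a median of 0.21 (41 higher, 23 lower) and the first by 0.44 (57 higher, 8 lower).

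**Figure D4:**
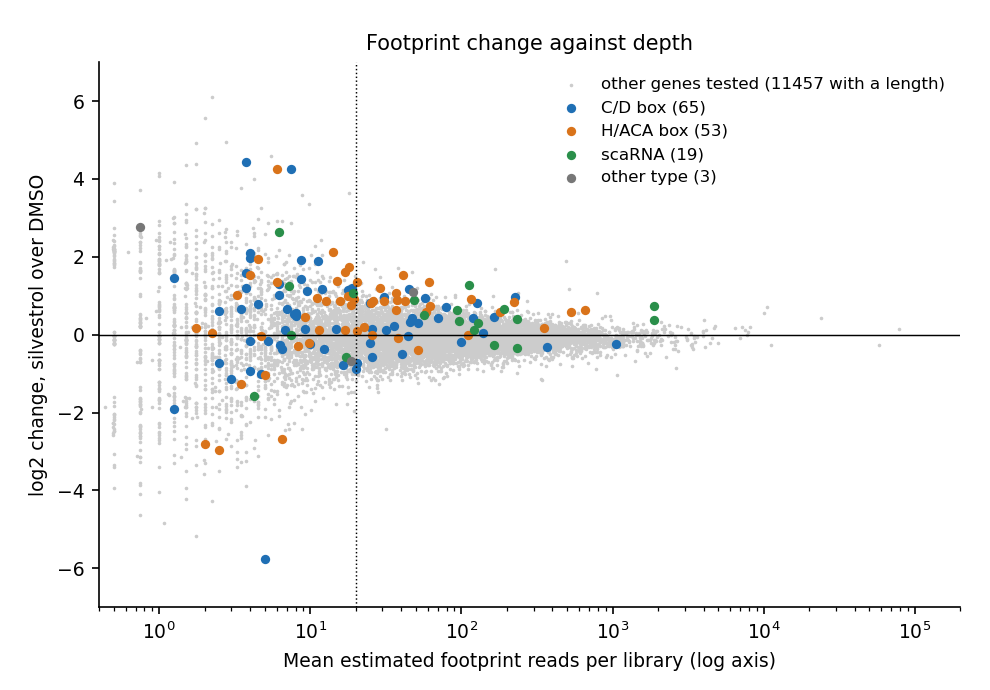
Log2 change in footprints (silvestrol over DMSO) against the mean estimated reads per library (logarithmic axis), with the 140 RNAs in colour over the other genes tested in grey and a dotted line at 20 reads. All changes of the 140 beyond 2 in either direction lie left of the line, and right of it 50 of the 65 RNAs lie above 0.

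SNORD91A, a C/D box snoRNA within TSR1, was the only one of the 140 called, and it is 1 of the 4 that reached 5 RPKM in DMSO only. It passed the rule and the filter through the DMSO libraries alone, so a lower value in silvestrol was built into its choice. It had 27.9 and 25.3 RPKM in the DMSO footprints and was listed at 0 in both silvestrol footprints (adjusted p = 0.0277, limma), so no fold is given. Its annotation has transcripts of 95 and 191 bases. At 95 bases its values in all 10 libraries came within 0.05 of whole reads, and the DMSO footprint values were 6.02 and 3.99 reads. A count of 3 reads would have been 13.3 and 15.5 RPKM in the silvestrol libraries. The call thus rests on about 10 reads. It was lost with a pseudocount of 0.1 (adjusted p = 0.0962), with no filter on low values (0.0508), with voom on estimated reads (0.19) and without any 1 of the 4 footprint libraries (0.704 to 0.91). In total RNA SNORD91A averaged 0.63 RPKM in DMSO and 0.413 RPKM in silvestrol, below the level tested.

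Among RNAs with at least 20 estimated reads, the largest positive changes were SNORA5A, SNORA38B, SNORA46, SCARNA22 and SNORA71C. SNORA5A, in TBRG4, had 102 and 49.4 RPKM in DMSO and 220 and 191 RPKM in silvestrol, a log2 change of 1.52 (SE 0.38, adjusted p = 0.681). SCARNA22, in NSD2, had 282 and 197 RPKM in DMSO and 676 and 488 RPKM in silvestrol, a change of 1.28 (SE 0.25, adjusted p = 0.601). In both, each silvestrol library was above each DMSO library. SNORA38B, in NOL11, had 175 and 78.1 RPKM in DMSO and 302 and 300 RPKM in silvestrol, and SNORA46, in CNOT1, had 62.1 and 22.3 RPKM and then 87.2 and 106 RPKM. SNORA71C, in SNHG17, overlapped between groups (98.8 and 26.9 RPKM in DMSO, 179 and 80.7 RPKM in silvestrol). Without the second DMSO library the log2 changes were 1.00 for SNORA5A, 0.78 for SNORA38B against 1.36, 0.63 for SNORA46 against 1.36 and 0.28 for SNORA71C against 1.21. With voom on estimated reads, which weights each value by its depth, 2 RNAs were called higher, SNORD20 (log2 change 0.94, adjusted p = 0.0181) and SCARNA22 (1.25, adjusted p = 0.0341). That fit called 0.0776% of 11597 genes higher. With limma on RPKM the change of SNORD20 was 0.98 (SE 0.19, adjusted p = 0.564). SNORD18C, named here after its values were seen, had the lowest p of the positive changes, with 76.7 and 78.5 RPKM in DMSO and 171 and 185 RPKM in silvestrol (log2 change 1.19, SE 0.11, adjusted p = 0.169).

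The largest negative changes at that depth were SNORD105, SNORD69, SNORD93, SNORD23 and SNORA65. SNORD105, in PPAN, had 145 and 149 RPKM in DMSO and 54.4 and 116 RPKM in silvestrol, a log2 change of -0.88 (SE 0.39, adjusted p = 0.769). SNORD69, in GNL3, had 195 and 125 RPKM in DMSO and 92.9 and 95.7 RPKM in silvestrol, a change of -0.72 (SE 0.23, adjusted p = 0.701). SNORA65, in RPL12, did not overlap either (214 and 218 RPKM, then 129 and 208 RPKM). SNORD93 and SNORD23 overlapped between groups, and each takes the opposite sign when the second silvestrol library is left out. Without the first silvestrol library SNORD105 had -0.34 and SNORA65 -0.05 against -0.40, and without the second they had -1.43 and -0.74. SNORD69 had -0.40 without the first DMSO library. Of the most abundant RNAs, SNORD110 had a change of -0.25 (SE 0.13) and SNORD104 of -0.32 (SE 0.20), while SCARNA8 had 0.37 (SE 0.16) and SCARNA11 0.74 (SE 0.23). Their adjusted p-values ran from 0.696 to 0.811. Without the first DMSO library SNORD110 had -0.14 and SNORD104 -0.11, and without the second SNORD104 had -0.54, SCARNA8 0.20 and SCARNA11 0.45.

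Among the 19 scaRNAs 10 were higher in both silvestrol libraries than in either DMSO library, 1 (SCARNA6, a U5 guide) was lower in both, and none was called. These are 52.6% and 5.26% of the 19, against 13.7% and 23.6% of all genes tested. SCARNA3 had a change of 0.39 (SE 0.12) and SCARNA14 of 0.36 (SE 0.12), both with groups that did not overlap. SCARNA5 and SCARNA6 come from the same host gene, ATG16L1, and went in opposite directions. SCARNA5 had 79.9 and 78.5 RPKM in DMSO and 122 and 105 RPKM in silvestrol, a log2 change of 0.51 (SE 0.13, adjusted p = 0.661). SCARNA6 had 43.3 and 31.8 RPKM in DMSO and 25.4 and 24.1 RPKM in silvestrol, a change of -0.58 (SE 0.19, adjusted p = 0.71). The difference between the 2 changes was not tested. SCARNA7 (U1 guide) had 198, 137, 199 and 204 RPKM and SCARNA12 (U5 guide) had 190, 227, 241 and 209 RPKM in the order given above. SCARNA1, a U2 guide, had 95.7 and 392 RPKM in DMSO and 365 and 252 RPKM in silvestrol, so its DMSO libraries enclosed both silvestrol libraries. SCARNA20 had 128 and 110 RPKM in DMSO and 151 and 319 RPKM in silvestrol, and SCARNA23 had 40.7 and 46.3 RPKM, then 64.7 and 132 RPKM. SCARNA9, SCARNA17, SCARNA18B and SCARNA21B averaged under 10 estimated reads and overlapped between groups.

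Some snoRNAs act in cleavage and folding of the ribosomal RNA precursor rather than as plain modification guides. Of 11 such genes matched in the files, 4 reached the threshold. SNORA73B (U17), in RCC1, was the highest, with 515 and 245 RPKM in DMSO footprints and 683 and 590 RPKM in silvestrol footprints (log2 change 0.84, SE 0.39, adjusted p = 0.769). The other 3 were copies of U14 within HSPA8. SNORD14C had 15 and 34.2 RPKM in DMSO and 47.8 and 151 RPKM in silvestrol, SNORD14D had 40.6, 0, 4.84 and 33.9 RPKM and SNORD14E had 31.1, 14.2, 9.90 and 34.7 RPKM. Near-identical copies can share reads, so the split among U14 copies is uncertain. SNORD14B was listed at 0 in all footprint libraries while its total RNA ran from 11.9 to 14.7 RPKM. The U3 genes SNORD3A, SNORD3B-1, SNORD3B-2 and SNORD3C had footprint means from 0.178 to 1.30 RPKM, and SNORD118 (U8) and SNORD13 (U13) were listed at 0 in all 10 libraries. A further gene labelled U3, within TEX14, was not among the 11 but passed the threshold, and is named here after its values were seen. It had 86 and 58.6 RPKM in DMSO footprints and 179 and 129 RPKM in silvestrol footprints, without overlap. Its log2 change was 1.09 (SE 0.26, adjusted p = 0.659), not a call. Whether this gene acts as the other U3 genes do was not tested. U3 is an abundant snoRNA with several copies, and the treatment of multiply mapped reads was not described in the sources used here.

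The imprinted C/D box clusters gave little signal. Of 28 SNORD116 genes, 7 had a footprint value above 0 and 3 reached the threshold, SNORD116-12, SNORD116-29 and SNORD116-10, all in SNHG14. Their means were 29.1, 26.0 and 6.39 RPKM, from 5.25, 4.50 and 1.25 estimated reads per library. None of 45 SNORD115, 8 SNORD113 or 29 SNORD114 genes had a footprint read.

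All 140 RNAs lie within a longer gene on the same strand, 102 genes in all, and 24 of these hosts carried at least 2 of them. The median log2 change of 95 tested hosts was -0.04, near the -0.06 of all genes, and none was called. Of 130 RNAs with a tested host, 93 had a change above that of the host. Over these 130 the Spearman rho between the change of the RNA and that of its host was -0.028. Of 22 tested hosts with at least 2 of the RNAs, the median change of their RNAs was above the host's in 17 and below it in 5. In C19orf48P the 3 snoRNAs SNORD88A, SNORD88B and SNORD88C had a median change of 1.12 and the host -0.38. In RPS12, a ribosomal protein gene, SNORD100, SNORD101 and SNORA33 had a median of 0.93 and the host -0.43. In NCL the median was 0.98 and the host had 0.09, and in NOP56 the median was -0.02 and the host had -0.05. The 5 hosts with the lower median in their RNAs, named after their values were seen, were GNL3 (-0.20 against 0.13), RPL3 (-1.35 against -0.22), PPAN (-0.38 against 0.07), KANSL2 (0.08 against 0.18) and ATG16L1 (-0.03 against 0.31).

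The proteins that bind, trim or localise these RNAs gave no calls. None of the 10 tested C/D particle proteins, 6 H/ACA particle proteins, 11 tested Cajal body proteins or 17 exonuclease and trimming factors was called in footprints, in RNA or in the ratio. Median footprint log2 changes were 0.09, 0.00, -0.11 and 0.09. Fibrillarin (FBL), the C/D methyltransferase, had means of 258.5 RPKM in DMSO and 261.5 RPKM in silvestrol footprints. Dyskerin (DKC1), the H/ACA pseudouridine synthase, had 68.6 and 81.7 RPKM. EXOSC4, an RNA exosome subunit, had the largest change of the lists (5.70 to 13.4 RPKM, log2 change 1.16, adjusted p = 0.534).

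Other small RNAs of protein complexes were present in the same footprint libraries. The spliceosomal snRNA genes took 2.21% and 1.96% of reads in DMSO and 2.41% and 3.42% in silvestrol, led by RNU5B-1 with 92700, 73900, 94800 and 131000 RPKM. Their median log2 change over 26 genes with at least 20 reads was 0.20, with 18 positive (69.2%). Libraries did not overlap for 10 of the 26 with silvestrol higher and 4 with silvestrol lower (38.5% and 15.4%). At an unadjusted p under 0.05 (limma), 15.4% were higher and 3.85% lower. Among the 65 of the 140 RNAs at that depth, 76.9% were positive and libraries did not overlap for 49.2% and 6.15%. Over all genes tested 13.7% and 23.6% did not overlap. The vault RNA VTRNA1-1 had 682 and 742 RPKM in DMSO and 659 and 760 RPKM in silvestrol, and the groups overlapped. Mitochondrial ribosomal RNA took 5.56% and 8.05% of reads in DMSO and 6.26% and 6.81% in silvestrol. The second DMSO library, lowest in the 140 RNAs, was also lowest in snRNAs and highest in mitochondrial ribosomal RNA. The part of these shares in the change of the 140 RNAs was not tested.

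In total RNA 94 of the 140 RNAs reached 1 RPKM and none was called by limma, against 0.0405% of 12350 genes called higher and 0% called lower. Their median log2 change was -0.0047, against 0.0028 over all genes tested, within a range of -0.33 to 0.38. At an unadjusted p under 0.05, 5 were higher and 8 lower (5.32% and 8.51%), where the background was 6.2% and 2.46%. The share of lower RNAs was thus above the background. Voom on estimated reads called none. Libraries did not overlap for 2 RNAs with silvestrol higher and 4 with silvestrol lower (2.13% and 4.26%), where the background was 8.56% and 4.22% of genes. The same fit recovered 100% of genes changed 2-fold in simulated data. In the footprint fit that figure was 2%, and 62% for genes changed 4-fold, with 26 false calls. The changed genes averaged at least 20 estimated reads per footprint library and at least 1 RPKM in both assays. The spread between simulated libraries was assumed, so these figures do not give the recovery to be had among the 140 RNAs.

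The footprint change relative to the RNA change, a treatment by assay term that is no translation rate for these RNAs, was called for none of 94 (limma with weights per assay), against 0.0194% of 10297 genes called higher and 0.0874% called lower. The median was 0.45, against -0.08 over all genes tested, with 63 positive and 31 negative. At an unadjusted p under 0.05, 10 were higher and 3 lower (10.6% and 3.19%), where the background was 2.09% and 5.29%. Voom on estimated reads called none.

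**Figure D5:**
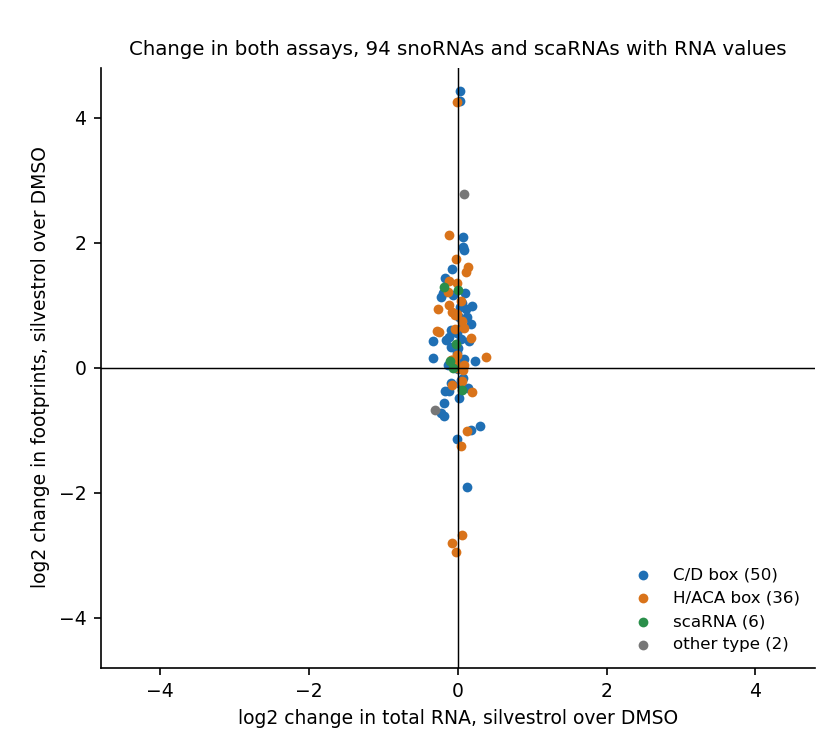
Log2 change in footprints against log2 change in total RNA (silvestrol over DMSO, equal scales on both axes) for the 94 RNAs with at least 1 RPKM in total RNA, coloured by class. The RNA changes lie between -0.33 and 0.38, while the footprint changes run from -2.96 to 4.43.

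At the threshold of 5 RPKM the values came from few reads, an estimated mean of 0.749 to 1.76 reads per library for the 3 members just inside. Just inside were SNORA54 (10.8, 0, 13.7 and 0 RPKM), SNORD83A (9.29, 6.34, 8.86 and 0 RPKM) and ENSG00000266692 (0, 0, 22.9 and 0 RPKM), in the order DMSO 1, DMSO 2, silvestrol 1 and silvestrol 2. Just outside were SNORD116-2 (0, 0, 4.43 and 15.5 RPKM), SNORD63B (12.6, 0, 0 and 7.02 RPKM) and SNORA36B (6.74, 0, 12.8 and 0 RPKM). Of the 140 RNAs 133 reached a mean of 5 RPKM in both treatments, 4 in DMSO only and 3 in silvestrol only.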

How the data were processed

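Ribosome-protected fragments and total RNA were measured in KOPT-K1 cells, in 10 libraries grouped by sample title. The authors deposited 1 table of RPKM values per library, per the file headers. The aligner STAR and the build hg19 appear, with no version, per the submitters' processing notes. Neither the counting tool and gene lengths nor the handling of strand and of multiply mapped reads was described in the sources used here. GENCODE 29, which is on another build, gave only names, types, exon lengths, host relations and transcript sequences, and no coordinates are printed. Of the IDs 6227 had no name in either table, so unnamed snoRNAs may be missed.

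Reads were estimated as RPKM times exon length times a library total found from the steps of low values. In each library 90.6% to 93.1% of low values came within 0.05 of a whole read. The RNA totals are rough.

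Values were analysed as log2(RPKM + 0.5), which understates changes of low genes, for genes with a mean of at least 1 RPKM over the libraries of the comparison (in each assay for the relative change), with libraries as deposited. Tests used limma 3.58.1 in R 4.3.3 (lmFit, eBayes with trend and robust), with Benjamini-Hochberg adjustment over all genes tested and calls at an adjusted p under 0.05. The relative change was the treatment by assay interaction over 10 libraries with weights per assay. The fits were tested on simulated data, with changed genes that averaged at least 20 estimated footprint reads and 1 RPKM in both assays. For the relative change, 44% of genes changed 2-fold and 96% of those changed 4-fold were recovered among 10009 genes, with 39 false calls.

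The genes, lists and tests were chosen with earlier results of these data known. Named RNAs are the 10 highest in footprints, those called, 3 on each side of the threshold, the 5 highest in total RNA, the 5 largest changes each way with at least 20 estimated reads, all scaRNAs, the rRNA-processing snoRNAs and their hosts. Alternatives were other pseudocounts, filters, scalings, voom, a replicate block and leaving out each library.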

Additional observations from a re-analysis of the deposited data

How the results depend on the processing

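The 1 call among the 140 RNAs in footprints (SNORD91A) was kept with a pseudocount of 1, with median scaling and with quantile normalization. The count was 0 with a pseudocount of 0.1, with no filter, with at least 1 RPKM in both assays, with at least 10 estimated reads and among RNAs with at least 20 estimated reads, and it was 0 to 0 without each footprint library in turn. The filters on both assays and on reads leave SNORD91A out. With voom on estimated reads it was 2 (SNORD20 and SCARNA22). With the replicate number as a block it was 0 (SNORD91A adjusted p = 0.189), and in the ratio of footprints to RNA the block gave 2 calls (SNORA33 and SNORD14C, 2.13% of 94, where 0.136% of all genes were called), against 0 without it, and none in total RNA. Same-numbered libraries share only a number: their deviations correlated at -0.002 in footprints and at 0.04, -0.24 and 0.19 in total RNA. With 1 spread for both assays the ratio had 6 calls (4 higher, 2 lower), 6.38% of 94 and near the 5.29% of all genes called. Without single libraries it had 0 to 2, where at most 0.427% of all genes were called without a footprint library. The median change in footprints ranged from 0.51 to 0.62 over other pseudocounts, scalings, voom and no filter, and from 0.30 to 0.69 without single libraries. It was 0.43 among the 94 RNAs with at least 1 RPKM in both assays, and 0.59 among the 87 with at least 10 estimated reads. The median log2 ratio of footprints to RNA was 4.77 to 5.07 without single libraries, an alternative chosen after seeing the data. SNORD60, at 0.04, had -0.0087 with quantile normalization and -0.21 to 0.28 without single libraries. SNORD93, at -0.57, had -1.33 to 0.19, positive without the second DMSO or the second silvestrol library. SNORD23, at -0.49, had -1.33 to 0.36, positive without the second silvestrol library. In each case the cause was not tested. A leave-out leaves 1 library in a group, which is assumed to vary like the other group.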

Other observations

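One gene ID outside the 140, ENSG00000252690, carries footprint values that fit the length of a scaRNA of another name. GENCODE 29 gives it a longer transcript whose exon contains SCARNA15, an H/ACA guide for U2 snRNA, while the file's footprint values fit the length of SCARNA15 itself. At 127 bases its 4 footprint values came within 0.0187 of the whole numbers 6, 5, 26 and 21 reads, and of 340 lengths tried 2 brought all 4 within 0.05 of whole numbers, 127 bases and its double. At 127 bases the total RNA values of DMSO 2, DMSO 3 and silvestrol 3 were not within 0.05 (88.8, 74.9 and 62.9 reads). Those of DMSO 1, silvestrol 1 and silvestrol 2 were. The sequence of SCARNA15 is printed for comparison with SCARNA22, with the box motifs in capitals as before.
SCARNA15: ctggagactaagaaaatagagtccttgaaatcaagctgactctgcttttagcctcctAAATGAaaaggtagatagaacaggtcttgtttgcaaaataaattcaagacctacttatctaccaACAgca
The ID had 20.8 and 23.7 RPKM in DMSO footprints and 86.1 and 81.3 RPKM in silvestrol footprints, and the groups did not overlap. The log2 change was 1.89 (SE 0.13, limma adjusted p = 0.0818), not a call. In total RNA it ran from 3.11 to 4.16 RPKM, with a log2 change of 0.01 (adjusted p = 0.994).

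Of 89 IDs typed as microRNA genes and tested in footprints, 1 was called higher, the only such call among all genes tested (0.00835%). Their median log2 change was 0.73, with 57 positive and 32 negative, beside a median of 0.56 for the 140 RNAs. Libraries did not overlap for 10 with silvestrol higher and 7 with silvestrol lower (11.2% and 7.87%), where the background was 13.7% and 23.6%. Reads of the microRNA genes made up 0.0291% and 0.0266% of the DMSO footprint libraries and 0.0361% and 0.0366% of the silvestrol footprint libraries.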
